A study of Homo sapiens with 4 samples.

Results

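The genes described here are CCL2 and 9 other genes of monocyte chemokines and their receptors: the ligands CCL7, CCL8, CCL5, CCL23, CXCL2, CXCL8 and CXCL10, and the receptors CCR1 and CCR2. They are 10 of 18417 genes read on 4 Affymetrix arrays. Each gene was taken by its symbol in the platform annotation, with its brightest probe set over the arrays, and all 10 were found. The set was chosen by the measured rise of CCL2, the most increased gene of the table. The members' differences between the lines are therefore given as a description, with no p-value.

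RNA of MV4-11, an established human acute myeloid leukaemia line with an MLL fusion and an activating duplication in the kinase FLT3, was compared with RNA of MV4-11R. The resistant line was grown from it over 3 months in rising amounts of PKC412, a FLT3 kinase inhibitor also called midostaurin. Each line has 2 arrays, called S1 and S2 for replicates 1 and 2 of MV4-11, which is drug-sensitive, and R1 and R2 for those of MV4-11R. By the labels the sensitive line has high and the resistant line low expression of EZH2, a histone methyltransferase. They describe 1 resistant line, and do not say whether drug was present when RNA was taken, or whether replicates were separate cultures. A p-value here rests on array-to-array spread alone, perhaps only technical. The title of the series names EZH2 loss and multidrug resistance. On these arrays EZH2 read 9.75 and 9.74 in MV4-11 and 9.90 and 9.29 in MV4-11R, so the lines overlapped.

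Chemokines are small secreted proteins that direct the movement of white blood cells. CC chemokines such as CCL2 carry a pair of adjacent cysteines and mostly attract monocytes and lymphocytes, whereas in CXC chemokines such as CXCL8 another residue separates them. They act on G protein-coupled receptors: CCL2, CCL7 and CCL8 on CCR2, CCL5 and CCL23 on CCR1, CXCL8 and CXCL2 on CXCR2, and CXCL10 on CXCR3. Monocytes make CCL2 and CXCL8 when NF-kB and AP-1 are active, and CXCL10 in response to interferon.

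Values are log2 signals from the RMA method, in which a difference of 1 is a doubling. Signals of different genes come from different probes and cannot be ranked against each other. As a guide to background, 95% of 341 olfactory receptor genes, silent in most blood cells, read at or below 6.26. In a gene near that level a fold understates the true change. Total RNA of a culture was measured, so fewer cells that express a gene and less RNA per cell cannot be told apart.

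CCL2, the main attractant of monocytes, read 6.44 and 6.10 in MV4-11 and 12.09 and 12.71 in MV4-11R. The parental arrays lay on either side of the background guide and both resistant arrays far above it. The difference was 6.14 (SE 0.23, 95% interval 5.58 to 6.69, n = 2 per line), the highest of all 18417 genes. Of the 10 genes, 3 were higher by limma's call (adjusted p under 0.05), CCL2, CXCL8 and CCL5, and 1 was lower, CCL23. The other 6 were not called. Over all genes 7.92% were called higher, 7.13% lower and 15.1% either way. Since the rise of CCL2 in this same comparison chose the set, the count describes the members and is no test of them. With S1 left out 2 were called, CCL2 and CXCL8. Without S2 or R1 CCL23 was not called, and without R2 CCR1 and CCR2 were also called, making 6. The arrays of the lines did not overlap for 8 of the 10, 5 higher and 3 lower in MV4-11R, against 55.6% of all genes (29.6% higher and 26.0% lower).

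**Figure D1:**
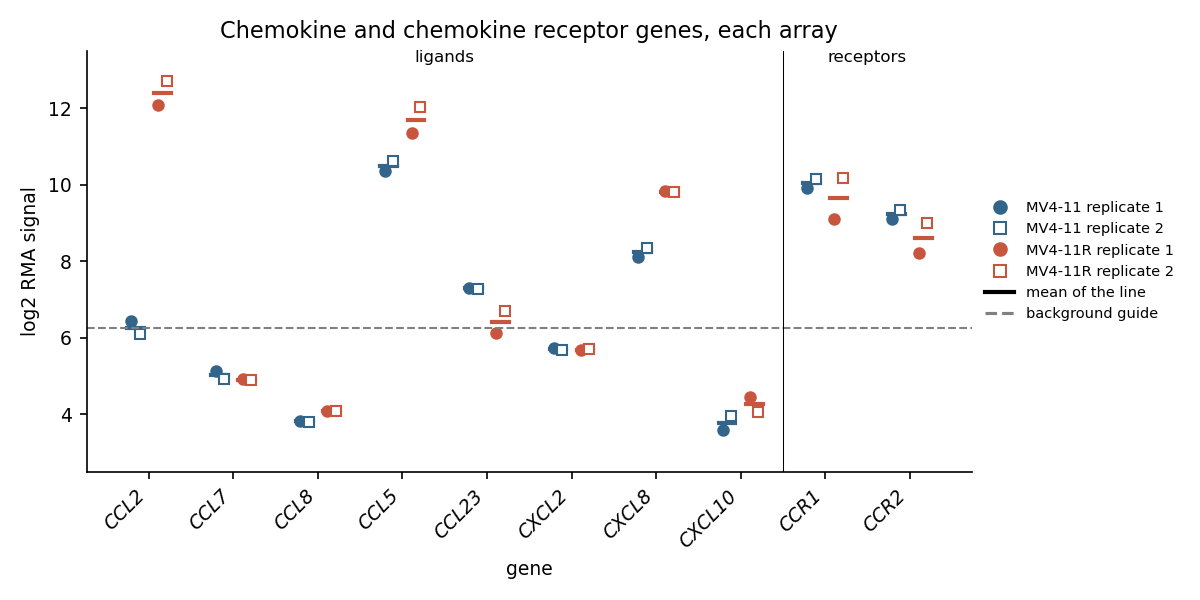
Log2 RMA signal (vertical axis) of the 8 ligands and 2 receptors on each array: filled circles are replicate 1 and open squares replicate 2, blue for MV4-11 and red for MV4-11R, with the mean of each line as a bar and the background guide of 6.26 as a dashed line. CCL2 goes from the guide to above 12, CCL5 and CXCL8 are higher in MV4-11R, CCL23 is lower, and CCL7, CCL8, CXCL2 and CXCL10 lie below the guide on every array.

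CCL7 and CCL8, the nearest relatives of CCL2 and its neighbours in the same cluster on chromosome 17, did not share its level. CCL7 read 5.14 and 4.93 in MV4-11 and 4.91 and 4.89 in MV4-11R, a difference of -0.13 (SE 0.12, 95% interval -0.43 to 0.16). CCL8 read 3.83 and 3.80 in MV4-11 and 4.09 on both MV4-11R arrays, a difference of 0.27 (SE 0.10, 95% interval 0.02 to 0.53). Both stayed under the background guide in both lines, so small changes there cannot be read.

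The 5 measured ligand genes of the cluster lie in the order CCL2, CCL7, CCL11, CCL8 and CCL1, and CCL13 was not analysed here. CCL11 (eotaxin, an attractant of eosinophils) read 6.52 and 6.41 in MV4-11 and 6.66 and 6.46 in MV4-11R, and did not pass (difference 0.10, SE 0.12, adjusted p = 0.691; 0.482 to 0.999 under the alternatives). CCL1, at the far end of the cluster, encodes a ligand of CCR8 made mainly by activated T cells and monocytes. It read 6.32 and 6.01 in MV4-11 and 8.10 and 8.30 in MV4-11R. CCL1 rose 4.09-fold by limma (difference 2.03, SE 0.15, adjusted p = 0.00159). CCL2 was thus joined by 1 cluster member at the other end, past 3 genes between them that did not pass.

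The genes around the cluster showed a mixed picture. Among the 10 measured protein-coding genes on each side, leaving out chemokines, the median difference was 0.14 (range -1.45 to 1.13). There were 3 rises and 1 fall, beside 7.92% higher and 7.13% lower over all genes. ASIC2, an ion channel gene that is the measured neighbour before CCL2, had a difference of 0.10. CCT6B, a chaperonin subunit gene that is the measured neighbour after CCL1, rose by 1.13 (SE 0.17, adjusted p = 0.0107).

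CCL5 (RANTES), an attractant of T cells and monocytes, lies in a second cluster on chromosome 17. It read 10.35 and 10.62 in MV4-11 and 11.36 and 12.03 in MV4-11R, high above background in both lines. The difference was 1.21 (SE 0.23, 95% interval 0.65 to 1.77), 2.31-fold. CCL5 was already well expressed in the parental line, in contrast to CCL2, which lay at the guide. T and NK cells also make CCL5. Of 11 T and NK cell genes 5 read above the guide in either line, and CD2, CD3D, CD3E, CD3G, CD8B and KLRD1 lay under it on all arrays. The list's summed linear signal was 2057 to 2088 in MV4-11 and 3106 to 3245 in MV4-11R, with NKG7, a granule protein gene, higher by 0.94 (adjusted p = 0.00518) and NCAM1 lower by limma (-2.06, adjusted p = 0.00458). The others above the guide did not pass: CD8A, which read 6.55 and 6.49 in MV4-11 and 6.77 and 7.21 in MV4-11R (0.47, adjusted p = 0.118), GNLY (0.14) and GZMB (0.00). Their part in the CCL5 difference was not tested.

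CCL23, a CCR1 ligand of the same cluster, went the other way. It read 7.31 and 7.29 in MV4-11 and 6.12 and 6.69 in MV4-11R, a difference of -0.89 (SE 0.20, 95% interval -1.37 to -0.42), with 1 resistant array under the guide.

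Among the other genes of this second cluster, CCL3 and CCL4 encode attractants of monocytes and T cells, and near-identical gene copies make their single values uncertain. CCL3 read 7.01 and 6.91 in MV4-11 and 7.78 and 7.47 in MV4-11R and rose by 0.66 (SE 0.14, adjusted p = 0.0295). That call was lost without S1 (0.0715), S2 (0.103) or R1 (0.0939), in a range of 0.0160 to 0.103 over the alternatives. CCL4 rose by 0.88 (SE 0.12, adjusted p = 0.00777), from 4.29 and 4.48 to 5.24 and 5.29, all under the guide. CCL16 (difference -0.01) and CCL18 (-0.11) did not pass, and of 10 genes listed for this cluster 4 were measured. The 20 genes flanking the cluster had a median difference of 0.13, with 4 rises and 0 falls, beside 7.92% higher and 7.13% lower over all genes. Among those near CCL4, MYO19 (1.08) and PIGW (1.69) rose by more than CCL3 and CCL4 did. These flanking genes were chosen after their values were seen. In this cluster a higher ligand (CCL5), a lower ligand (CCL23) and ligands that did not pass (CCL16, CCL18) stood side by side.

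**Figure D2:**
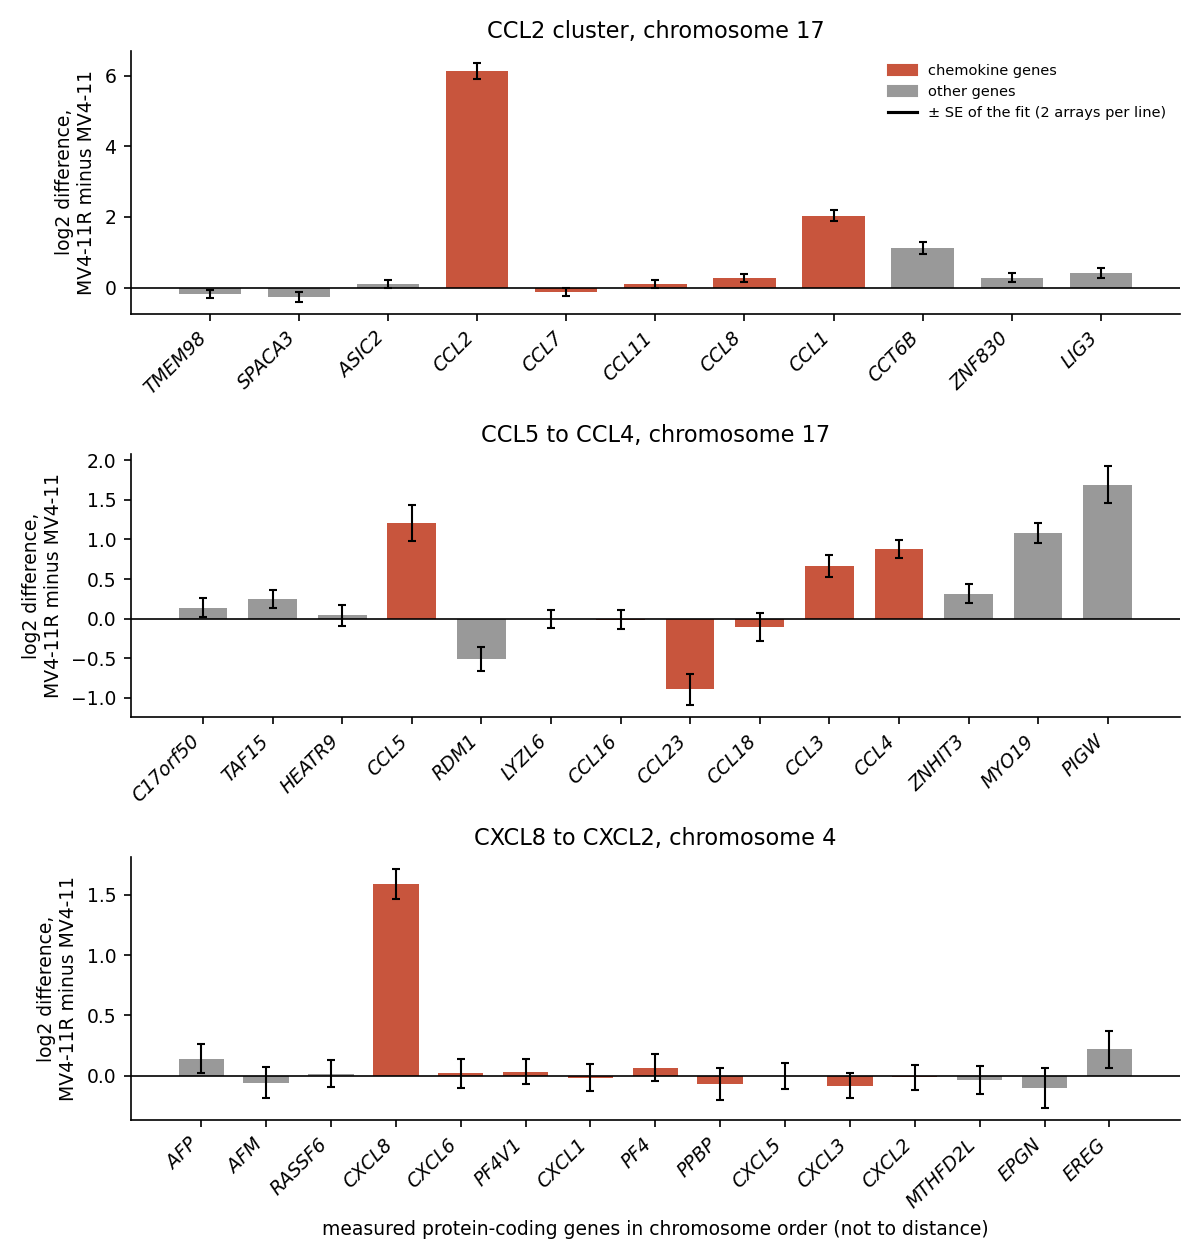
Log2 difference (MV4-11R minus MV4-11, vertical axis) of measured protein-coding genes in chromosome order for 3 chemokine clusters; red bars are chemokines, grey bars other genes, whiskers ± SE of the fit with 2 arrays per line. In the top panel CCL2 (6.14) and CCL1 (2.03) stand at either end of genes near 0, and in the bottom panel CXCL8 (1.59) stands beside 8 chemokine genes near 0.

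CXCL8 (interleukin 8), an attractant of neutrophils, read 8.12 and 8.34 in MV4-11 and 9.83 and 9.81 in MV4-11R. Both resistant arrays lay above both parental ones. The difference was 1.59 (SE 0.12, 95% interval 1.29 to 1.89), 3.01-fold, at rank 109 of all genes. CXCL2, a ligand of the same receptor at the other end of this chromosome 4 cluster, read 5.72 and 5.69 in MV4-11 and 5.69 and 5.70 in MV4-11R. Its difference was -0.02 (95% interval -0.27 to 0.24), under the guide throughout.

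The other CXC ligands of chromosome 4 were not called, but their line means lay at or under the guide, where small changes cannot be read. Of 10 listed, 10 were measured, and 0 rose and 0 fell by limma (0 also at an unadjusted p under 0.05), with a median difference of -0.01 and a range of -0.13 to 0.15. Over all genes the median was 0.01, and 7.92% were called higher and 7.13% lower. With 10 genes the count is near those shares and is no result about these ligands. The largest difference was that of CXCL13, which draws B cells to lymphoid follicles, at 0.15 (SE 0.12, adjusted p = 0.507), and 0 of the 10 read above the guide in either line. The 20 flanking genes had a median difference of 0.05.

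CXCL10, an interferon-induced ligand of CXCR3, lies elsewhere on chromosome 4. It read 3.59 and 3.95 in MV4-11 and 4.46 and 4.06 in MV4-11R. The difference was 0.49 (SE 0.19, 95% interval 0.03 to 0.95), but every array was well under the guide. CXCL9 and CXCL11, its interferon-induced relatives, both had differences of -0.13. The 20 genes flanking CXCL10 had a median difference of 0.06 (range -1.71 to 2.33). Of these 5 rose and 2 fell, beside 7.92% higher and 7.13% lower over all genes.

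To show the upstream sequences of genes that differed and genes that stayed at background within a cluster, the 250 bases before the RefSeq start (GRCh38.p14) are given for 4 ligands. Of the 10 genes, 8 had an entry in the promoter table, and CCL2 and CCL5 did not. Capitals mark matches, on either strand, to 4 patterns. The NF-kB-like pattern was GGNNNTTCC, and that of AP-1 was TGACTCA. The TATA box pattern was TATAAA, and the interferon-stimulated response element was searched as well. No pattern overlaps another in these windows. The first pair lies on the plus strand of chromosome 17, CCL7 at chr17:34269971-34270220 and CCL8 at chr17:34319185-34319434. The second pair lies on chromosome 4, CXCL8 on the plus strand at chr4:73740319-73740568 and CXCL2 on the minus strand at chr4:74099196-74099445.
CCL7: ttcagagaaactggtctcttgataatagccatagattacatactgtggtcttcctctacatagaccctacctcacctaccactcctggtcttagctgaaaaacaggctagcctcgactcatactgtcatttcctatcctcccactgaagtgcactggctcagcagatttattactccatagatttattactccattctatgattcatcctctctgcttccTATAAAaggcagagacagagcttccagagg
CCL8: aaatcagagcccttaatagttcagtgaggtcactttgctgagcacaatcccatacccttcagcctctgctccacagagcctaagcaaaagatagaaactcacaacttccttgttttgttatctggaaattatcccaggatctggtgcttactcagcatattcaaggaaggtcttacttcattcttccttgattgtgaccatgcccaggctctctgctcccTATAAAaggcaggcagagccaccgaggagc
CXCL8: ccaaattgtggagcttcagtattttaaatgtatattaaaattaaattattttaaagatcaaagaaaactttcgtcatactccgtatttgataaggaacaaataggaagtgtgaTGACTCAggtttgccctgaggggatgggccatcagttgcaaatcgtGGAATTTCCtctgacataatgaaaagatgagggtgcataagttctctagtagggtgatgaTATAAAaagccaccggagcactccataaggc
CXCL2: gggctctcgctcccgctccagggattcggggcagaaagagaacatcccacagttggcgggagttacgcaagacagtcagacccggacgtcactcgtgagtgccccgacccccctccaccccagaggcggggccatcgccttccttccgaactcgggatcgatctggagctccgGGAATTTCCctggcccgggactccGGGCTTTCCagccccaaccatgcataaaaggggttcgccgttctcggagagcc

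CXCL8, which was higher in MV4-11R, and CXCL2, at background in both lines, both held the NF-kB-like letters GGAATTTCC, 91 to 83 bases upstream in CXCL8 and 77 to 69 in CXCL2. The match reads on both strands at the same place. CXCL2 held another, GGGCTTTCC, at 53 to 45. CXCL8 alone of these 4 held the AP-1 letters, 137 to 131 bases upstream, and it held a TATA match at 31 to 26. CCL7 and CCL8 had a TATA match at 30 to 25 bases and none to the other patterns. Among 27305 windows of this length, 17.1% held the NF-kB-like pattern, 4.16% the AP-1 pattern, 3.07% the interferon element and 11.1% the TATA pattern. Among the 8 members these were 3, 2, 1 and 4 genes. The interferon element was in CXCL10 only, and the other AP-1 match was in CCR2. A match is a description of letters, and no binding was measured.

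The receptors read well above background and did not follow their ligands upwards. CCR2, the receptor of CCL2 that brings monocytes out of the marrow, read 9.10 and 9.34 in MV4-11 and 8.21 and 8.99 in MV4-11R. The resistant arrays lay below the parental ones, with a difference of -0.62 (SE 0.26, 95% interval -1.24 to 0.01). A second CCR2 probe set read 9.06 and 9.23 against 8.15 and 9.09 (difference -0.53).

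CCR1, the receptor of CCL5, CCL23 and CCL3, read 9.92 and 10.15 in MV4-11 and 9.11 and 10.17 in MV4-11R, so the lines overlapped. The difference was -0.39 (SE 0.33, 95% interval -1.19 to 0.41). It was 0.14 without R1 and -0.92 without R2, and for CCR2 it was -0.23 and -1.01. The size for both receptors thus rested on which resistant array was used. The genes around the receptors on chromosome 3 had a median difference of 0.03 over 20 genes.

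The resistant arrays differed from each other for several members. CCR1 was 1.06 lower on R1 than on R2, CCR2 0.78, CCL5 0.66, CCL2 0.62 and CCL23 0.58. These 5 exceeded 0.5, as did 4.92% of all genes. Between the MV4-11 arrays 0 of the 10 and 3.97% of all genes differed by that much. CCL2 passed from the guide to above 12 on either resistant array, whereas the readings of CCR1 and CCR2 depended on the array.

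The other chemokine receptors were lower more than higher. Of 16 listed, 14 were measured. By limma 0 rose, 4 fell and 10 did not pass, beside 7.92% higher and 7.13% lower over all genes, and the median difference was -0.25. CX3CR1, the fractalkine receptor of patrolling monocytes, read 9.87 and 10.02 in MV4-11 and 8.95 and 8.78 in MV4-11R. It fell 2.11-fold (SE 0.12 on the log2 scale, adjusted p = 0.00491). CCR6, a receptor of lymphocytes and dendritic cells, fell 2.02-fold (adjusted p = 0.0217), from 6.33 and 6.83 to 5.44 and 5.70.

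The other falls, chosen after their values were seen, were of CCR7 and CXCR4. CCR7, which guides cells to lymph nodes, fell 1.71-fold (adjusted p = 0.0128), from 6.89 and 7.08 to 6.14 and 6.27. CXCR4, the receptor of CXCL12 that holds leukaemic cells in the marrow, fell 1.59-fold (adjusted p = 0.0184), from 11.10 and 10.90 to 10.36 and 10.30. The CCR6 call was lost without S2 (0.0506) or R1 (0.0704), with a range of 0.00522 to 0.0735 over the alternatives. That of CCR7 was lost without S2 (0.0524; range 0.00811 to 0.0524), and that of CXCR4 without S1 (0.0824) or R2 (0.0511; range 0.0128 to 0.0824).

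**Figure D3:**
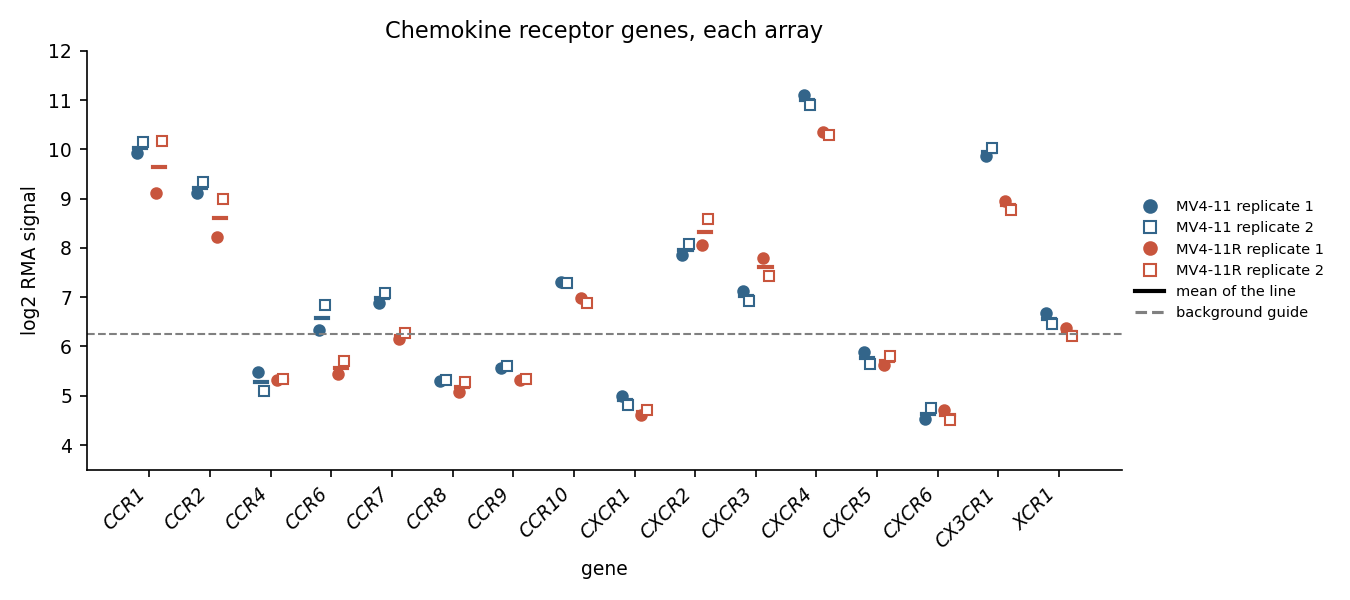
Log2 RMA signal (vertical axis) of CCR1, CCR2 and the 14 other measured chemokine receptors on each array, drawn as filled circles (replicate 1) and open squares (replicate 2), blue for MV4-11 and red for MV4-11R, with line means as bars and the background guide dashed. CX3CR1, CXCR4, CCR7 and CCR6 are lower on both MV4-11R arrays, while CCR1 overlaps between the lines.

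The receptors of CXCL8, CXCL10 and CCL1 were set beside their ligands, and none of those measured passed in either direction. CXCR2, which binds CXCL8, read 7.86 and 8.07 in MV4-11 and 8.06 and 8.59 in MV4-11R, with overlap, and CXCR1, the other CXCL8 receptor, was under the guide in both lines. CXCR3, the CXCL10 receptor, had a difference of 0.60 (SE 0.16, adjusted p = 0.0554). CCR8, the CCL1 receptor, read between 5.07 and 5.31, under the guide, on all 4 arrays.

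Among the 7 atypical and scavenging receptors, which bind chemokines without classical signalling or were listed with them, 1 rose, 1 fell and 5 did not pass (median difference -0.07). The shares over all genes were 7.92% higher and 7.13% lower. ACKR2, a decoy receptor that clears CCL2 and other CC chemokines, fell 1.58-fold (adjusted p = 0.0172), from 8.36 and 8.17 to 7.61 and 7.59. GPR75, a receptor reported to bind CCL5, rose 1.39-fold (adjusted p = 0.0414). The call of ACKR2 was lost without S1 (0.0791) or R1 (0.0515), with a range of 0.0140 to 0.0791. That of GPR75 was lost without any 1 of the 4 arrays (0.109, 0.170, 0.145 and 0.0710; range 0.0315 to 0.170).

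Of the 32 other chemokine ligands measured over the lists, 4 rose, 1 fell and 27 did not pass (median difference -0.01). These 5 calls of 32 are near the background of 15.1% called over all genes, so the count is no result about the ligands. Outside the clusters above, CXCL16, a transmembrane ligand of CXCR6 made by monocytes, rose 2.64-fold (adjusted p = 0.0154), from 5.97 and 6.67 to 7.60 and 7.84. With every probe set tested on its own that adjusted p was 0.0590, the highest of a range from 0.00397. CCL22, a CCR4 ligand made by macrophages and dendritic cells, fell 1.72-fold (adjusted p = 0.0122), from 7.53 and 7.31 to 6.66 and 6.63. The CCL22 call was lost without S1 (0.0501; range 0.00958 to 0.0501). Together with the members, the ligands called higher in MV4-11R were CCL2, CCL1, CXCL8, CXCL16, CCL5, CCL4 and CCL3, and those lower CCL23 and CCL22. CCL4 lay under the guide on every array. The calls of CCL3, CCL5, CXCL16, CCL23 and CCL22 were lost under some alternatives. Of the 32 others, 20 were at or under the guide in both lines.

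Genes that carry receptor signals inside the cell were listed to see whether they moved. Of 26 measured, 2 rose, 6 fell and 18 did not pass (median difference -0.24), beside 7.92% higher and 7.13% lower over all genes. RGS16, which switches off G protein signals, rose 3.29-fold (adjusted p = 0.0119), from 7.70 and 7.50 to 9.73 and 8.90. RGS18, a regulator of the same family found in blood cells, fell 2.83-fold (adjusted p = 0.0205), from 5.57 and 6.38 to 4.27 and 4.68, with both line means under the guide. The receptor kinase gene GRK6 rose 1.40-fold (adjusted p = 0.0319), and PIK3R5, a subunit of the PI3-kinase that G proteins activate, fell 1.76-fold (adjusted p = 0.0489). Of the other receptor kinase genes, GRK5 was called lower (-0.54, adjusted p = 0.0258, chosen after its value was seen). GRK2 (-0.12) and GRK3 (-0.36) did not pass.

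Without R1 the RGS18 call was lost (0.0629; range 0.00315 to 0.0728). That of PIK3R5 was lost without S1 (0.155), S2 (0.0638) or R1 (0.119), with a range of 0.0133 to 0.155. That of GRK6 was lost without any 1 array (0.118, 0.120, 0.114 and 0.0644; range 0.0260 to 0.120).

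Signals known to induce CCL2 and CXCL8 were read next. Of 22 measured inducing cytokines and receptors 4 rose, 1 fell and 17 did not pass (median difference 0.05), beside 15.1% called over all genes. TNF, a strong inducer of both ligands, read 8.76 and 9.04 in MV4-11 and 11.19 and 11.47 in MV4-11R, and rose 5.40-fold by limma (SE 0.15 on the log2 scale, adjusted p = 0.00123). TLR4, the endotoxin receptor, rose by 1.01 (adjusted p = 0.00452), whereas TLR2, the receptor of bacterial lipoproteins, fell by 1.13 (SE 0.11, adjusted p = 0.00349).

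The other rises, chosen after their values were seen, were of IL1RAP, the shared chain of interleukin 1 receptors (0.71, adjusted p = 0.0136), and of CSF1, the macrophage growth factor (0.63, adjusted p = 0.0183). The IL1RAP call was lost without S1 (0.0524; range 0.0117 to 0.0524). The CSF1 call was lost without S2 (0.0825), R1 (0.0510) or R2 (0.0521), with a range of 0.0155 to 0.0825. IL1B, another inducer of CCL2, had a difference of -0.66 (SE 0.28, adjusted p = 0.195), and IL1A, IL6, IFNG and IFNB1 were under the guide.

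Of 25 NF-kB, AP-1 and related factors 9 rose, 1 fell and 15 did not pass, beside 7.92% higher and 7.13% lower over all genes. The median difference was 0.50 against 0.01 over all genes. FOS, FOSB, JUN, ATF3 and EGR1 stand also in the list of immediate early genes below, so their differences count in both. FOSB (difference 1.39, SE 0.17, adjusted p = 0.00596) and JUND (1.26, SE 0.11, adjusted p = 0.00239), subunits of AP-1, rose most. RELB, an NF-kB subunit, rose by 0.85 (adjusted p = 0.0118) and CEBPB, a monocyte factor, by 0.73 (adjusted p = 0.0116), both chosen after their values were seen. The NF-kB subunits NFKB1 (0.31, adjusted p = 0.138) and RELA (-0.22, adjusted p = 0.249) did not pass. NFKBIZ, a nuclear regulator of NF-kB, fell by 1.07 (SE 0.23, adjusted p = 0.0294), a call lost without S2 (0.0616) or R2 (0.0770; range 0.0103 to 0.0901).

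**Figure D4:**
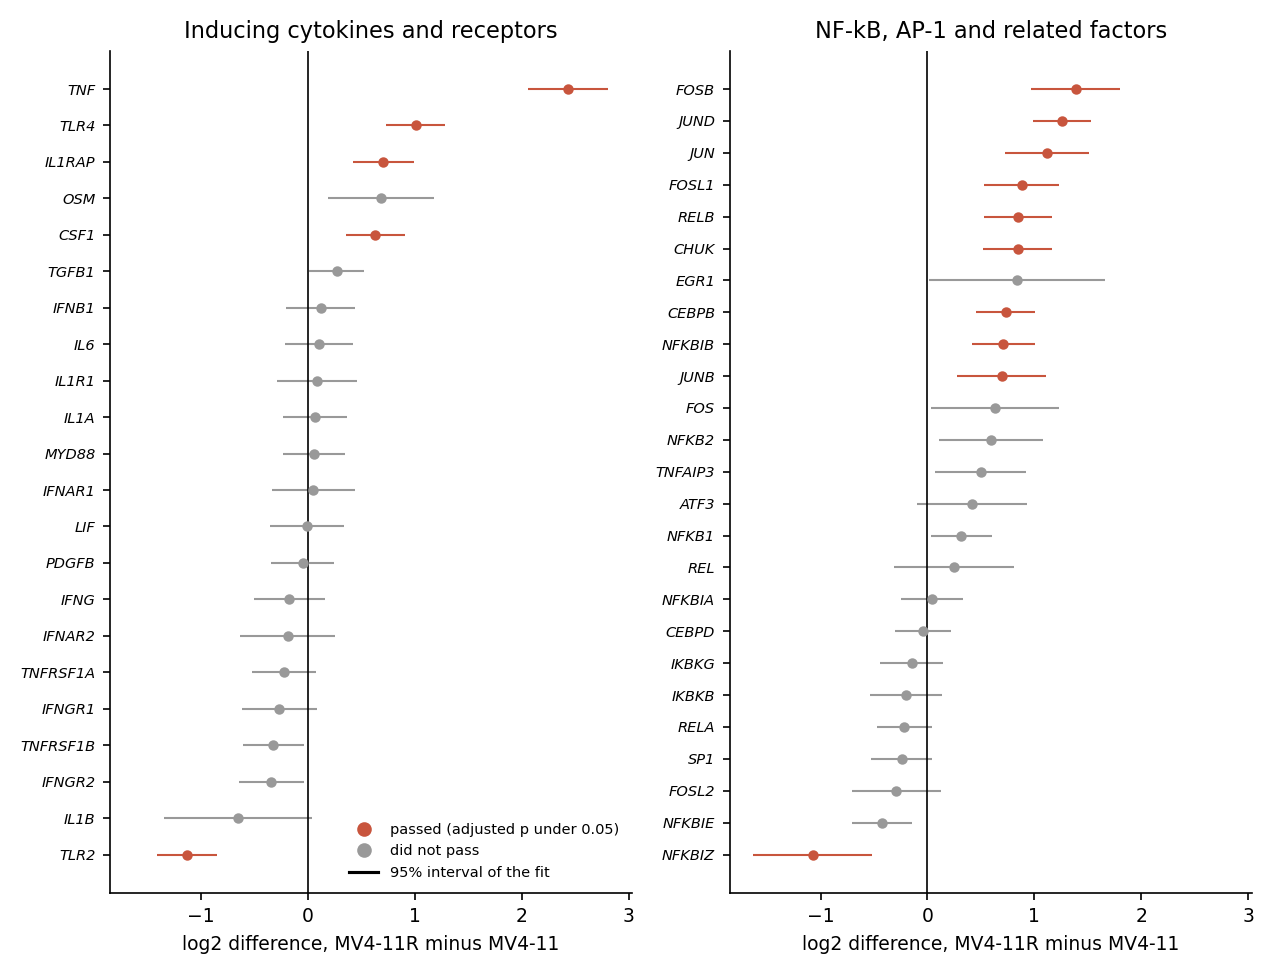
Log2 difference (MV4-11R minus MV4-11, horizontal axis) with its 95% interval from the fit for 22 inducing cytokines and receptors (left) and 25 NF-kB, AP-1 and related factors (right), red where limma's adjusted p was under 0.05. TNF at 2.43 and TLR2 at -1.13 mark the ends of the left panel, and FOSB at 1.39 and NFKBIZ at -1.07 those of the right.

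Immediate early genes, which answer to growth signals and to how a culture was harvested, were listed as well. Of 10 measured 5 rose, where 7.92% of all genes did, 0 fell and 5 did not pass (EGR1, EGR3, FOS, ATF3 and NR4A1, with differences of 0.13 to 0.84). Their summed linear signal was 2062 and 3004 in MV4-11 and 4304 and 4424 in MV4-11R. Besides FOSB and JUN (1.12, adjusted p = 0.00991) the rises were of DUSP1 (1.08), IER3 (1.07) and IER2 (0.73), chosen after their values were seen, the last lost without S1 (adjusted p = 0.0898), R1 (0.0616) or R2 (0.0680; range 0.0140 to 0.0898). Their part in the chemokine differences was not tested. Of 10 ribosomal protein genes 0 rose and 0 fell by limma (1 at an unadjusted p under 0.05), the largest difference being 0.26 for RPS23 (adjusted p = 0.172).

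Genes of the interferon response, which induces CXCL10 and CCL8, went both ways, with rises only among targets and falls only among factors. Of 13 measured 3 rose, 2 fell and 8 did not pass (median difference 0.08), beside 7.92% higher and 7.13% lower over all genes. IFIT2 (3.01-fold, adjusted p = 0.00752), IFIT3 (2.0-fold, adjusted p = 0.0211) and IFIT1 (1.73-fold and under the guide, adjusted p = 0.0153, chosen after its value was seen), which block translation of viral RNA, rose. The other measured targets, OAS1 (difference 0.51), ISG15 (0.05), RSAD2 (-0.05) and MX1 (-0.24), did not pass. The factors IRF8 (-1.46, SE 0.12, adjusted p = 0.00192) and IRF5 (-1.08, SE 0.11, adjusted p = 0.00398), which direct monocyte development and inflammatory genes, fell. IFIT3 was not called without S1 (0.0510) or S2 (0.0575; range 0.00669 to 0.0719), nor IFIT1 without S1 (0.0563; range 0.0104 to 0.0563).

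Chemokine messages are short-lived, and 9 genes of RNA-binding proteins that control this were measured. ZFP36L1, which promotes decay of AU-rich messages, rose 2.0-fold (adjusted p = 0.00563), 0 fell, and 8 did not pass, among them ZFP36 (0.06) and ZC3H12A (-0.01), which degrade cytokine messages. Of 16 genes for processing and binding of chemokines 0 rose, 1 fell and 15 did not pass. Over all genes 7.92% were called higher and 7.13% lower, so neither count is a result about its list. DPP4, a protease that trims CCL5, CXCL10 and other chemokines, read 6.99 and 7.12 in MV4-11 and 4.66 and 4.93 in MV4-11R, a fall of 4.78-fold (adjusted p = 0.00102) to below the guide. The pathway lists were chosen with earlier results of these data known, so their share of calls is a description and no test. Over the 12 pathway lists, 41 of 164 measured genes were called (24 rises and 17 falls), 25% against 15.1% of all genes. Without S1 the count was 27, where over all genes it went from 2772 to 1588.

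By the distance between centred profiles over the 4 arrays, the genes most like CCL2 were ORM1, an acute phase protein (distance 1.43), MEST, an imprinted gene (1.93), BCL2L10, a BCL2 relative (1.99), SMC1B, a meiotic cohesin subunit, and ALOX12, a lipoxygenase (2.38). They hold places 2 to 6 by size of difference, so with 4 arrays likeness is mostly a large difference. ORM1 read 5.87 and 4.93 in MV4-11 and 9.72 and 10.68 in MV4-11R, lower on replicate 1 of the resistant line as CCL2 was.

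The samples were read for 12 measured markers of myeloid cells and leukaemia. SPI1, CEBPA, CD68, LYZ, CD4 and FLT3 read above 10 on all 4 arrays. MPO read 7.21 to 8.06 and ITGAM 7.33 to 7.75 over the arrays. CD14 lay near the guide (6.05 and 6.13 in MV4-11, 7.24 and 6.49 in MV4-11R), and KIT under it on every array (4.59 to 5.02). Of the 12, 0 rose and 4 fell, beside 7.92% higher and 7.13% lower over all genes. The falls were of CSF1R (3.31-fold) and FLT3 (1.90-fold), and of PTPRC and LYZ, chosen after their values were seen. PTPRC lost its call without any array but R2 (adjusted p of 0.0521 to 0.0647, range over the alternatives 0.0106 to 0.0683), and LYZ without S2 (0.0780) or R2 (0.0542; range 0.00925 to 0.0780).

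Markers of other cells, some of which can make these chemokines, were also read, beside 7.92% called higher and 7.13% lower over all genes. Of 9 fibroblast genes 1 rose, LUM, under the guide, with sums of 626 to 641 and 618 to 683. Of 8 endothelial genes 0 rose and 1 fell, ESAM (-0.54), with sums of 1550 to 1810 and 2072 to 2811, and 3 of the 8 read above the guide in either line. PECAM1, also found on monocytes, read 10.03 and 10.34 in MV4-11 and 10.64 and 11.20 in MV4-11R (difference 0.74, adjusted p = 0.0707). CLDN5 was also above the guide (difference -0.02), while CDH5, ERG, KDR, TEK and VWF lay under it. Of 6 B cell genes PAX5 rose (0.80) and CD79B fell (-1.09), of 6 erythroid and megakaryocyte genes ITGA2B fell (-0.67), and of 7 neutrophil genes 0 passed by limma (1 at an unadjusted p under 0.05). The calls of ESAM, PAX5 and ITGA2B were lost without any array but R2 (adjusted p of 0.0579 to 0.0986), and that of LUM without any of the 4 (0.0537 to 0.197). The part of these markers in the chemokine differences was not tested.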

How the data were processed

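RNA was measured on 4 Affymetrix arrays, 2 of MV4-11 and 2 of MV4-11R. The deposited values are log2 signals per probe set, which the authors made with RMA and Expression Console; both names come from the submitters' processing notes, without versions. RMA makes the spread of signals alike between arrays and compresses dim genes. The log2 scale was read from the range of values (array medians 6.75 to 6.78). Arrays give no counts, and their number limits the precision.

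Of 33297 probe sets, 19460 named 1 gene, 1754 named several and 12083 were unlisted; only the first were used. Symbols were updated by Entrez gene ID from RefSeq (GRCh38.p14; 31 probe sets unmatched), which also gave chromosome order. The genome build of the array is not given in the sources used here. The brightest probe set was kept for 769 genes with several, leaving 18417 genes with no filter.

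Each gene was fitted with limma 3.58.1 in R 4.3.3 (lmFit and eBayes, 2-sided, Benjamini-Hochberg over all genes, called at an adjusted p under 0.05). SE is limma's moderated error, on 2 degrees of freedom from the arrays and 6.06 in all. The fit was tested on simulated data. Deviations of same-numbered arrays from their line means correlated at 0.262 over genes; the labels do not say that a number marks a shared day, so no block was used. The members and lists were chosen with earlier results of these data known. Named genes were the members, the 5 genes closest to CCL2, and from each list the 2 largest rises and the 2 largest falls that passed, or else the single largest difference. Alternatives were median centring, quantile normalization, a filter at the 25th percentile of level, mean of probe sets, every probe set on its own, an intensity trend, a replicate block and leaving out each array.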

Additional observations from a re-analysis of the deposited data

How the results depend on the processing

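The difference of CCL2 kept its direction and ran from 5.83 to 6.45 with an array left out, and was 6.14 with the replicate block. Of the member values under alternatives, 105 moved by no more than 1 SD between arrays and 1 by more. Leaving out 1 of 2 arrays cannot move a difference by more than that SD, so this count does not measure stability. The difference of CCR1, -0.39 with all arrays, was 0.14 without R1 and -0.92 without R2. The genes called went from 2772 to 1505 when every probe set was tested on its own, to 3642 with the replicate block, and to between 1588 and 2479 with an array left out. The members called numbered 4, or 2 with every probe set on its own, 5 with the replicate block (CCR2 added) and 2 to 6 with an array left out. The pathway genes called numbered 41, or 22 with every probe set on its own, 50 with the replicate block and 27 to 38 with an array left out. With every probe set on its own, 33297 were tested; the cause of the lower counts was not tested. Of 611 values of 56 other named genes under the alternatives, 74 lost the call, 0 gained it and 0 changed sign. Most of these 56 genes were named because they passed in the main fit, so few could gain a call. The intensity trend, the replicate block and single probe sets left each difference as it was, so no sign could change there. With an array left out, 1 line has a single array, which is assumed to vary like the other line. CCL7, CCL8, CXCL2 and CXCL10 lay below the background guide, where small changes cannot be read.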
